A study of Sus scrofa with 10 samples.

Results

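The genes described here build and use the microtubule and neurofilament skeleton of cells: the tubulins, the kinesin and cytoplasmic dynein motors, the neurofilament chains, and proteins that bind microtubules or free tubulin. They were chosen by gene name, and no value entered the choice of a row, although earlier results of these data were known when the pattern was set. The name pattern took in the alpha, beta and gamma tubulins, kinesin heavy and light chains, cytoplasmic dynein subunits, the MAP, stathmin and DPYSL families, the 3 neurofilament chains and INA. It found 73 gene rows under 72 symbols among the 24951 rows with an estimate in both groups.

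RNA was sequenced from the hypothalamus of 10 pigs of an Iberian x Landrace backcross. The 5 pigs of high growth and fatness are called high pigs and the 5 of low growth and fatness low pigs. Both groups carry the same breed and tissue labels, and the labels give neither age nor sex. The deposited values are FPKM (fragments scaled by transcript length and by library size), a single value for each group and gene row together with its bounds, so no difference has a replicate check and none is given a p-value. Bounds follow a value in brackets, and a difference is log2(FPKM + 1) in high pigs minus log2(FPKM + 1) in low pigs, which makes differences of scarce genes look smaller than they are.

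Microtubules are hollow tubes of paired alpha and beta tubulin. In nerve cells they stiffen axons and dendrites and serve as tracks, along which most kinesins carry cargo outward to the plus end and cytoplasmic dynein carries it back towards the cell body. Neurofilaments fill large axons and set their calibre. In the hypothalamus, neurosecretory cells send vesicles of peptide hormone along such tracks to the posterior pituitary.

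The labelled tissue was checked against its own markers. Of 7 hypothalamic genes, AVP stood at 472 FPKM in high pigs and 354 in low pigs, and PMCH at 167 in high and 91.8 in low pigs. OXT had 55.5 in high and 34.7 in low pigs. POMC and AGRP were lower in high pigs. POMC had 84.0 in high and 110 in low pigs, and AGRP 7.74 in high and 8.81 in low pigs. The orexin gene HCRT had 4.16 FPKM in high pigs and 1.78 in low pigs, and the transcription factor gene SIM1 0.420 in high and 0.507 in low pigs. The 7 genes summed to 791 FPKM in high pigs and 602 in low pigs, so markers of this tissue were present in both groups. Their levels were not alike. Of the 6 with a mean of at least 1 FPKM, 3 were past 1.5-fold on FPKM + 1 with the higher value in high pigs, against 1.85% of all such rows. These were PMCH (0.86), HCRT (0.89) and OXT (0.66). Whether the dissected regions matched was not tested. The neuronal genes NEFL, the light neurofilament chain, and TUBB3, the beta tubulin isotype of nerve cells, both exceeded 100 FPKM in each group. NEFL had 134 FPKM (94.2 to 173) in high pigs and 156 (94.1 to 218) in low pigs. TUBB3 had 131 FPKM (93.2 to 169) in high pigs and 135 (86.4 to 184) in low pigs. For both genes the intervals of the groups overlapped over most of their length.

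Most of the skeleton genes were abundant and differed little between the groups. A filter asked for a mean level of 1 FPKM or more, and 56 of the 73 rows passed it. Their median level was 42.3 FPKM, against 7.40 for all 15281 rows past that filter, and 27 of them lay in the highest 10% of rows by level. In both groups 14 of them exceeded 100 FPKM. The 73 rows summed to 6052 FPKM in high pigs and 6805 in low pigs, which was 1.502% of the summed FPKM of all rows in high pigs and 1.393% in low pigs.

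The median difference of the 56 was -0.05, with quartiles of -0.22 and 0.11, against -0.10 with quartiles of -0.25 and 0.05 for all rows past the filter. A higher value in high pigs was seen for 22 of the 56 (39.3%), against 32.3% of all rows. Only TUBB4A, 1 of 56 (1.79%), passed a 1.5-fold difference in FPKM + 1, against 6.33% of all rows. Split by direction, 1 of 56 passed with the lower value in high pigs, against 4.49% of all rows, and 0 of 56 with the higher value, against 1.85%. No gene of the 56 had deposited intervals that did not overlap, against 0.458% of all rows. The differences ran from -0.62 to 0.46, and 44 of the 56 (78.6%) lay within 1.2-fold, a limit chosen after the values were seen, against 69.4% of all rows.

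These directions depend on how the groups are put on one scale. Without rescaling, the median of all rows is -0.10, and 67.7% of all rows have the lower value in high pigs. Deposited counts of lower genes given below for roles and lists are to be read beside that share. When the columns were rescaled by the median of ratios or by quantiles it was -0.0051 and -0.0023, and 31 or 37 of the 56 genes then had the higher value in high pigs. A sign change under at least 1 of these scalings was found for 16 of the 56. The other 40 kept their sign under both, 22 with the higher and 18 with the lower value in high pigs.

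Alpha tubulin RNA came mostly from TUBA1B and TUBA1A, whose proteins are nearly identical and enter the same microtubules. TUBA1B had 823 FPKM (403 to 1242) in high pigs and 884 (187 to 1581) in low pigs. TUBA1A, the main alpha tubulin of developing neurons in human and mouse, had 695 FPKM (318 to 1072) in high pigs and 766 (132 to 1400) in low pigs. Both are on chromosome 5 of Sscrofa10.2 in a single deposited locus, 15443377 to 15596598, that spans 7 gene rows. Their intervals were the widest among the tubulins past the filter, with half-widths of 51.0% and 54.3% of the value in high pigs and 78.8% and 82.7% in low pigs. Each single value is uncertain, as nothing states how reads shared by these near copies were counted. TUBA1B made up 48.3% of alpha tubulin FPKM in either group, and TUBA1A 40.8% in high pigs and 41.8% in low pigs.

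The minor alpha tubulins were also close between groups. TUBA1C had 97.9 FPKM in high pigs and 92.2 in low pigs. TUBA4A, which in mammals is made without the C-terminal tyrosine that most other alpha tubulins carry, had 83.6 in high and 86.4 in low pigs. The identifier table has no entry for this TUBA4A row. It gives that name to another row, at 5.59 FPKM in high and 6.15 in low pigs. TUBA8 was the lowest of the alpha genes at 2.59 in high and 3.08 in low pigs. The direction of the alpha tubulins turned with scaling: 4 of 5 were lower in high pigs as deposited (median -0.10), against 2 of 5 by median-of-ratios scaling and 1 of 5 by quantile normalization. The 5 differences ran from -0.18 to 0.09, and the intervals of the groups overlapped for each gene.

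The beta tubulins differed more among themselves. TUBB4A, an isotype of nerve cells and of myelinating oligodendrocytes in human and mouse, had 434 FPKM (297 to 571) in high pigs and 669 (349 to 989) in low pigs. This is a difference of -0.62, or 1.54-fold on FPKM + 1, and the interval of high pigs overlapped that of low pigs. The gene (ENSSSCG00000013545) lies on chromosome 2 at 73063907 to 73085299, with an unnamed row of 1.62 FPKM in high pigs and 0.922 in low pigs at the same locus. TUBB4A fell short of 1.5-fold after either scaling, at -0.51 and -0.31.

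No other beta tubulin came near that difference. TUBB2A, a main brain isotype, had 333 FPKM in high pigs and 386 in low pigs (-0.21). TUBB3 differed by -0.04. TUBB4B, a widely expressed isotype that is also used in cilia, had 90.4 in high and 78.4 in low pigs (0.20) and was the beta gene with the higher value in high pigs as deposited, while TUBB2A and TUBB3 turned positive under quantile normalization. The place of the TUBB4B row is in doubt, as the RefSeq table of assembly Sscrofa11.1 has TUBB4B on another chromosome. TUBB1, the platelet isotype, was far below the filter at 0.0718 FPKM in high pigs and 0.132 in low pigs.

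The make-up of the beta tubulin rows differed accordingly as deposited, with no measure of error for the shares. No row named TUBB2B or TUBB6 was among them. Of the summed FPKM of the 5 beta rows of the name pattern, TUBB4A made up 43.9% in high pigs and 52.8% in low pigs, a difference of -8.87 percentage points. The other 4 beta rows summed to 555 FPKM in high pigs and 599 in low pigs, a ratio of 0.926. TUBB4A stood at 3.31 times the level of TUBB3 in high pigs and 4.95 times in low pigs. The gene named TUBB, which lies outside the name pattern, had 165 FPKM in high and 179 in low pigs (-0.12). With it counted in, the share of TUBB4A was 37.6% in high pigs and 46.2% in low pigs. TUBG1, the gamma tubulin that seeds new microtubules, had 40.9 in high and 44.3 in low pigs (-0.11 as deposited, 0.05 after quantile normalization).

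Genes of myelin stood lower in high pigs alongside TUBB4A. The 7 oligodendrocyte markers with an estimate in both groups were all lower in high pigs under each scaling, between -1.04 and -0.53 as deposited. MBP, a main protein of compact myelin, had 2017 FPKM in high pigs and 2904 in low pigs. CLDN11, the tight-junction protein of myelin, had 153 in high and 317 in low pigs, and MOBP had 367 in high and 685 in low pigs. The list summed to 2800 FPKM in high pigs and 4346 in low pigs, and none of the 7 was at 0. Their part in the difference of TUBB4A was not tested, and in bulk tissue fewer cells of a type and less RNA per cell cannot be told apart.

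**Figure D1:**
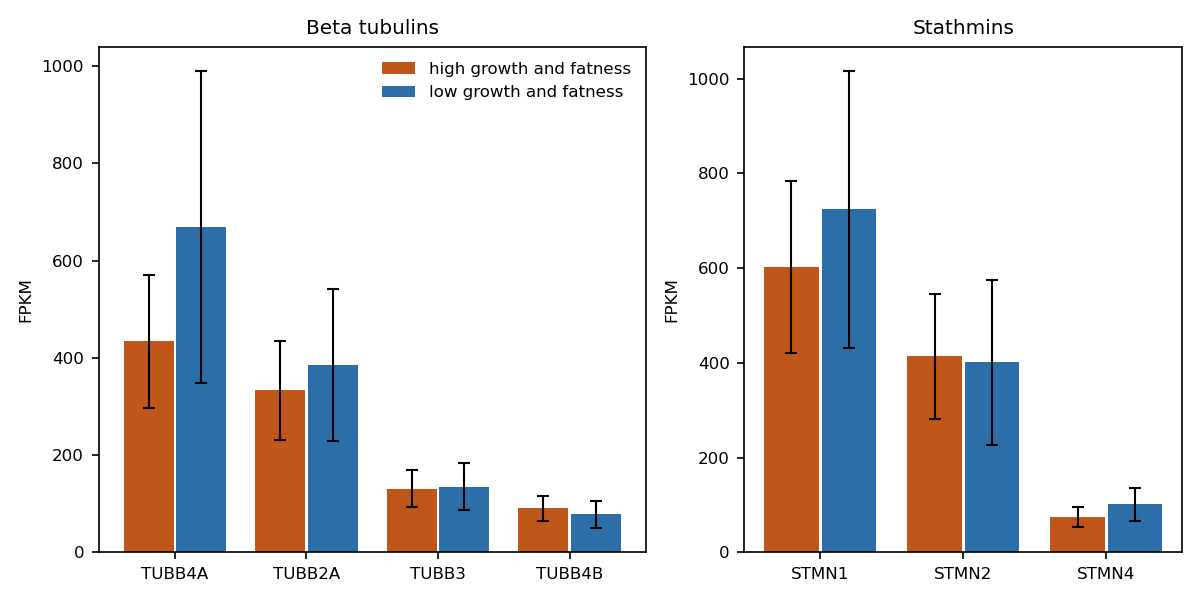
Deposited FPKM of the beta tubulins and stathmins in high pigs (left of each pair) and low pigs (right), with the authors' bounds as bars. TUBB4A shows the widest gap, 434 FPKM in high pigs and 669 in low pigs, and its bars still overlap.

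The 4 chains that copolymerise into neurofilaments had similar proportions in both groups. NEFM, the medium chain, had 84.0 FPKM (60.1 to 108) in high pigs and 98.0 (62.0 to 134) in low pigs. INA, alpha-internexin, had 78.5 in high and 82.4 in low pigs. NEFH, the heavy chain with the long phosphorylated tail, was the scarcest at 15.0 in high and 16.8 in low pigs. NEFL stood at 1.59 times NEFM in either group, and at 8.92 times NEFH in high pigs and 9.32 times in low pigs. The ratio to INA was further apart, at 1.70 in high pigs and 1.90 in low pigs. All 4 were lower in high pigs as deposited, with differences of -0.22 for NEFL and NEFM, -0.15 for NEFH and -0.07 for INA. INA turned positive under both scalings, and NEFM lay at -0.0014 after quantile normalization. The summed level was 311 FPKM in high pigs and 353 in low pigs, and every pair of intervals overlapped.

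Microtubule-associated proteins had no common direction as deposited: 3 of 6 were higher and 3 lower in high pigs (median 0.01), and 5 of 6 were higher after either scaling. MAP2, which binds microtubules in dendrites and cell bodies, had 225 FPKM (147 to 303) in high pigs and 185 (91.6 to 277) in low pigs. At 0.28 it was the largest positive difference among these 6 and stayed positive under both scalings. MAP1B, a large microtubule protein of growing axons, had 119 in high and 107 in low pigs (0.15). MAPT, which encodes tau and is found mostly in axons, had 88.1 in high and 90.0 in low pigs (-0.03 as deposited and positive after either scaling).

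The ubiquitous MAP4 was lower in high pigs under every scaling, at 43.6 FPKM in high and 51.3 in low pigs (-0.23). MAP2 thus stood at 5.15 times MAP4 in high pigs and 3.60 times in low pigs, and its share of the FPKM of these 6 genes was 45.3% in high and 40.8% in low pigs. The identifier table has no entry for this MAP4 row. It gives that name to another row below the filter, at 0.436 FPKM in high and 0.353 in low pigs (0.09). MAP6, which makes microtubules resistant to cold, had 16.8 in high and 16.1 in low pigs, and MAP1S had 3.72 in high and 3.88 in low pigs. MAP1A, which the identifier table names but the deposited names do not, had 93.6 FPKM in high pigs and 82.9 in low pigs (0.17).

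**Figure D2:**
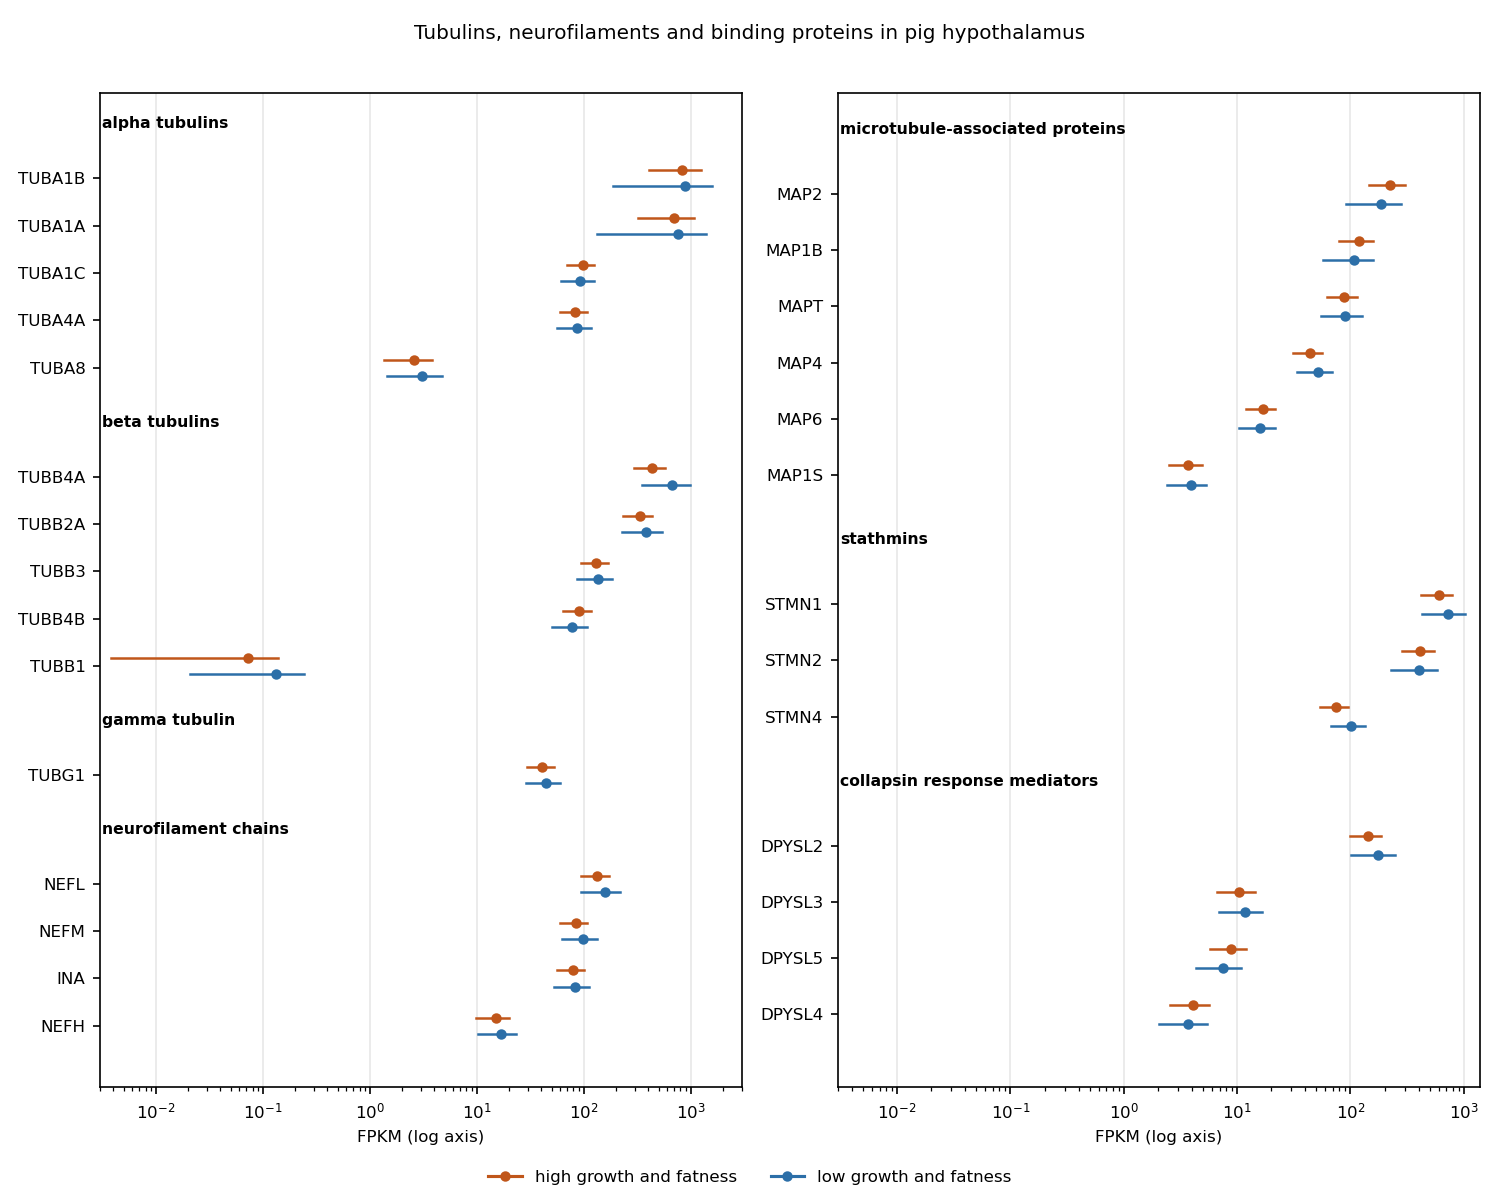
Deposited FPKM (log axis) of tubulins, neurofilament chains, microtubule-associated proteins, stathmins and DPYSL genes, with high pigs drawn above low pigs and the authors' bounds as bars. The bars of the groups overlap for every gene, and TUBA1A and TUBA1B carry the widest bars among the abundant genes. Bounds below 0.003 FPKM end at the axis.

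Stathmins bind free tubulin and promote the shrinking of microtubules. STMN1 had 602 FPKM (420 to 785) in high pigs and 724 (432 to 1016) in low pigs, a difference of -0.26 that became 0.11 under quantile normalization. STMN2, which in human and mouse neurons is linked to axon growth and repair, was nearly equal at 414 in high and 401 in low pigs (0.04). STMN4 had 74.4 FPKM (53.3 to 95.4) in high pigs and 101 (67.1 to 136) in low pigs. Its difference of -0.44 was the third largest negative value of all members and stayed negative under both scalings, at -0.33 and -0.24. STMN1 stood at 1.46 times STMN2 in high pigs and 1.80 times in low pigs.

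The collapsin response mediators, encoded by the DPYSL genes, bind tubulin dimers and pass guidance signals to the growing axon. DPYSL2 dominated, with 142 FPKM (99.0 to 184) in high pigs and 173 (102 to 245) in low pigs (-0.29). It made up 85.8% of the family's FPKM in high pigs and 88.3% in low pigs. The other 3 were far lower. DPYSL3 had 10.5 in high and 11.8 in low pigs (-0.16), DPYSL5 8.90 in high and 7.54 in low pigs (0.21), and DPYSL4 4.11 in high and 3.72 in low pigs (0.12). DPYSL2 and DPYSL3 were lower and DPYSL4 and DPYSL5 higher in high pigs under each scaling.

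Kinesin-1 is the general outward motor of axons, built of KIF5 heavy chains and KLC light chains. The neuronal heavy chain KIF5C had 109 FPKM (75.4 to 143) in high pigs and 112 (65.0 to 158) in low pigs. KIF5B, the ubiquitous one, had 40.0 in high and 43.9 in low pigs. KIF5C stood at 2.73 times KIF5B in high pigs and 2.55 times in low pigs. Of the light chains, KLC2 had 19.0 in high and 17.5 in low pigs, and KLC4 7.68 in high and 8.32 in low pigs. The name pattern also covers KLC1 and KLC3, but no row carried either name. All 4 differences lay between -0.13 and 0.11, and their median of -0.07 turned positive under both scalings. The third heavy chain, KIF5A, is named only by the identifier table and sits in a locus of 11 gene rows. It had 65.4 FPKM in high pigs and 55.1 in low pigs (0.24).

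Among the other transport kinesins, the kinesin-3 motors of synaptic vesicle precursors were the most abundant. KIF1A had 75.3 FPKM (52.8 to 97.7) in high pigs and 65.3 (41.4 to 89.2) in low pigs (0.20). KIF1B, a close relative that also carries mitochondria, had 53.1 in high and 48.7 in low pigs (0.12), and KIF21A, a kinesin-4 that restrains microtubule growth, 48.1 in high and 42.4 in low pigs (0.18). These 3 were higher in high pigs under each scaling.

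The less abundant kinesin-3 genes had the opposite sign under each scaling. KIF1C had 18.2 FPKM in high pigs and 22.7 in low pigs (-0.30). KIF13B, a carrier of membrane cargo, had 5.73 in high and 7.05 in low pigs (-0.26), and KIF16B, a motor of early endosomes, 2.84 in high and 3.79 in low pigs (-0.32). KIF21B was close at 11.2 in high and 11.1 in low pigs. All intervals in this group overlapped, and the median of the 7 was 0.01.

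Kinesin-2 moves cargo both in the cytoplasm and inside cilia. Its heterodimer subunits were close to equal: KIF3A had 45.9 FPKM in high pigs and 45.5 in low pigs, and KIF3B 13.2 in high and 13.1 in low pigs. KIF3C, the neuronal partner of KIF3A, had 30.0 in high and 26.4 in low pigs (0.18), but its locus also spans ASXL2. KIF17, the homodimeric kinesin-2 that in mouse neurons carries an NMDA receptor subunit into dendrites, had 3.04 FPKM (1.51 to 4.57) in high pigs and 1.94 (0.737 to 3.14) in low pigs. This was the largest positive difference of all members, 0.46, or 1.38-fold on FPKM + 1 and 1.57-fold on FPKM. It rested on a low level and on intervals that overlapped.

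The ciliary kinesins were scarce in this tissue. KIF7, which acts in hedgehog signalling at the tip of the cilium, had 1.57 FPKM in high pigs and 1.63 in low pigs. KIF19, which limits the length of motile cilia in mouse, had 1.10 in high and 1.18 in low pigs, and KIF27 1.14 in high and 0.893 in low pigs. KIF24 was just below the filter at 0.869 in high and 0.732 in low pigs. DYNC2H1, the heavy chain of the dynein that returns cargo within cilia, had 4.26 FPKM (2.46 to 6.06) in high pigs and 3.42 (1.71 to 5.14) in low pigs, and its 0.25 was positive under each scaling. Of 6 markers of ciliated ependymal cells, 5 were matched, with a median of 0.01 and a sum of 20.3 FPKM in high pigs and 18.7 in low pigs.

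Kinesins that work in the mitotic spindle and in cytokinesis were near the bottom of the range. None of the 11 rows of this role reached the filter. The highest was KIF20B, a motor of the spindle midzone, with 0.907 FPKM in high pigs and 1.08 in low pigs. KIF11, which pushes the spindle poles apart, had 0.231 (0.0817 to 0.380) in high and 0.360 (0.130 to 0.591) in low pigs, and KIF18B had 0.132 in high and 0.250 in low pigs. KIF2B was listed at 0 in both groups.

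Together the 11 rows summed to 3.51 FPKM in high pigs and 4.15 in low pigs. Of 6 markers of dividing cells 4 were matched: MKI67 had 0.585 FPKM in high and 0.784 in low pigs, TOP2A 0.629 FPKM in high and 0.994 in low pigs, CCNB1 0.311 in high and 0.533 in low pigs and AURKB 1.06 in high and 1.37 in low pigs. A second row under the name MKI67, which the identifier table gives to another gene, was left out. KIF22 appears on 2 rows, with 0.746 FPKM in high and 0.890 in low pigs on chromosome 3, and with 0.118 in high and 0.124 in low pigs on chromosome 10. The identifier table calls the second of them KIF14. KIF2C lies in a locus of 12 gene rows, and its half-width was 336% of its value in high pigs and 506% in low pigs. KIF2A, which disassembles microtubule ends and also acts in neurons, stood apart from these at 19.9 in high and 21.8 in low pigs (-0.13).

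Of the 33 kinesin heavy-chain rows, 17 passed the filter and 16 did not. Besides the 11 rows of cell division and KIF24, those below it were KIF6, KIF12, KIF25 and KIF26B, between 0.0308 and 0.765 FPKM in high pigs and between 0.0361 and 0.955 in low pigs.

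**Figure D3:**
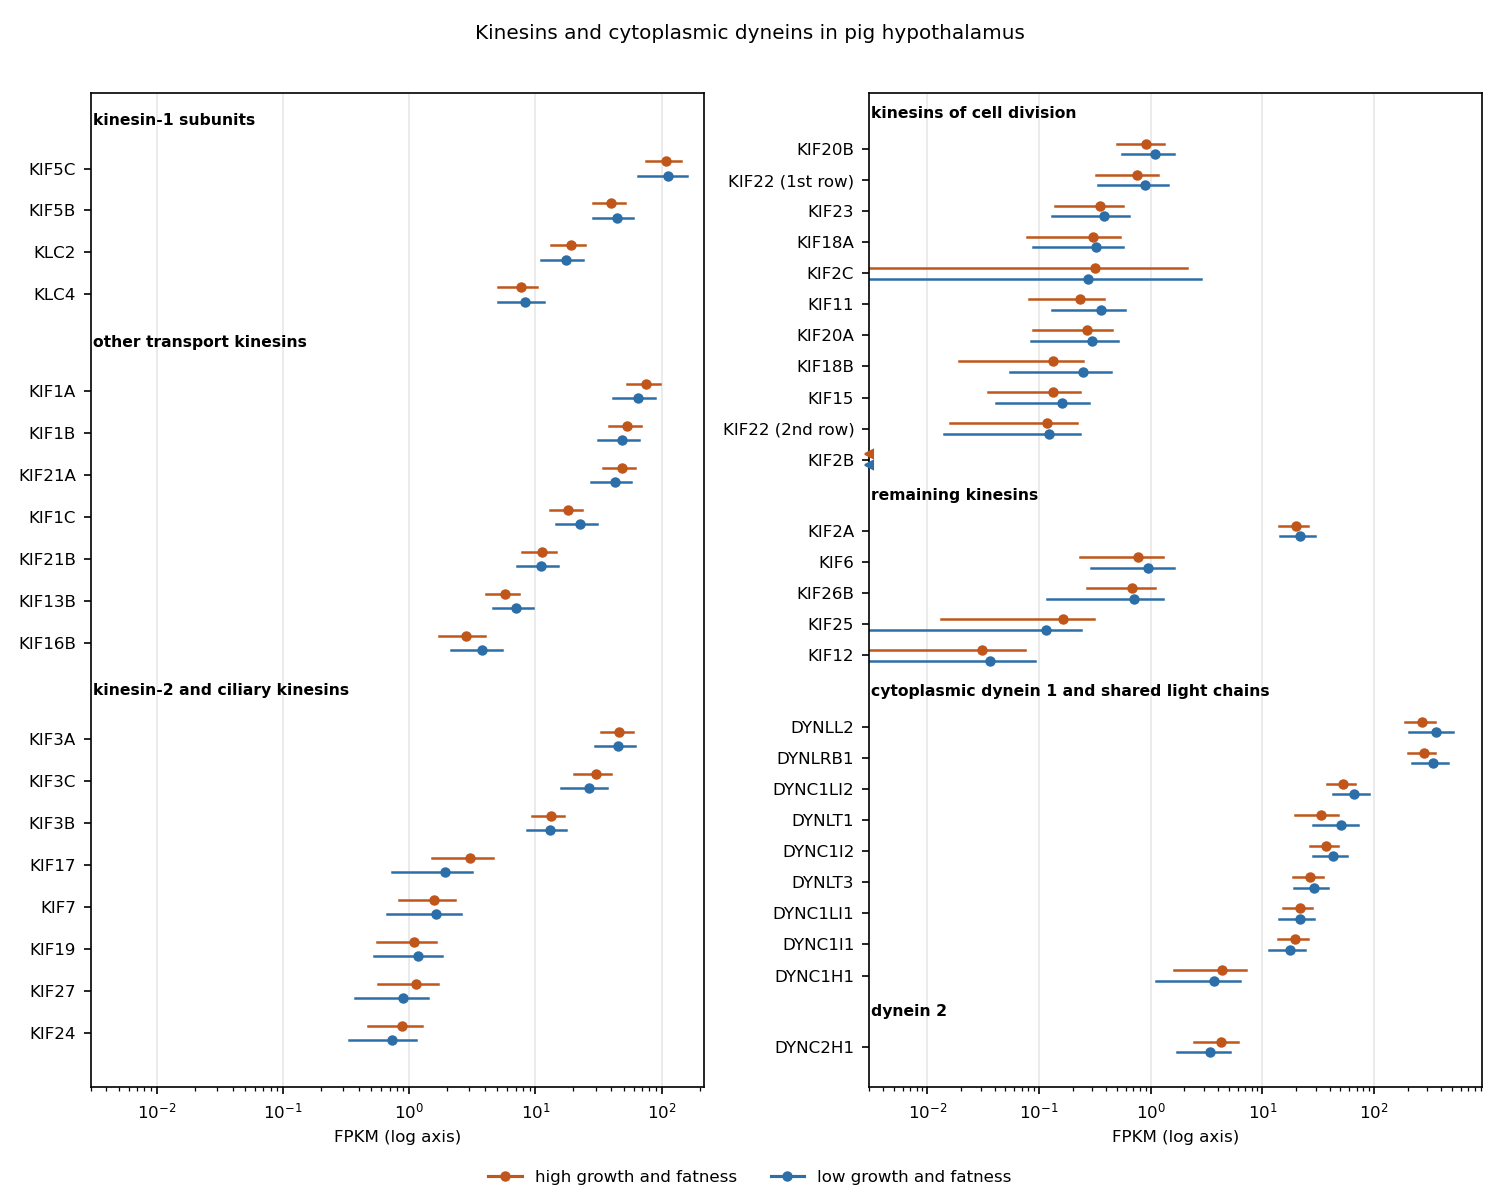
Deposited FPKM (log axis) of kinesins and cytoplasmic dynein subunits by role, with high pigs above low pigs and the authors' bounds as bars. Kinesins of cell division lie near or below 1 FPKM while KIF5C, DYNLL2 and DYNLRB1 exceed 100. KIF2B, listed at 0, is drawn as a triangle at the axis edge, and bounds below 0.003 FPKM end there.

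Cytoplasmic dynein 1 carries cargo inward along axons. Its role group here also holds light chains that are shared with other complexes. Of all motor subunits, the light chains DYNLL2 and DYNLRB1 of this group had the highest levels. The light chain DYNLL2 had 269 FPKM (188 to 351) in high pigs and 357 (207 to 507) in low pigs (-0.40). The roadblock light chain DYNLRB1 had 277 (200 to 354) in high and 338 (218 to 458) in low pigs, a difference of -0.28. DYNLL2 and DYNLRB1 were lower in high pigs under each scaling, although DYNLRB1 came to -0.01 under quantile normalization.

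DYNLT1, a Tctex-type light chain, lay just outside the 1.5-fold limit. It had 33.4 FPKM (19.5 to 47.2) in high pigs and 50.3 (28.2 to 72.5) in low pigs, which is -0.58, or 1.49-fold on FPKM + 1. The intervals overlapped between 28.2 and 47.2 FPKM. Its paralog DYNLT3 differed less, at 26.7 in high and 29.1 in low pigs (-0.12 as deposited, 0.04 after quantile normalization).

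The intermediate and light intermediate chains come in pairs of paralogs, and the more abundant of each pair was lower in high pigs under each scaling. Of the light intermediate chains, which link the motor to its adaptors, DYNC1LI2 had 52.8 FPKM in high pigs and 66.7 in low pigs (-0.33), while DYNC1LI1 had 21.7 in high and 21.5 in low pigs. Of the intermediate chains, DYNC1I2 had 37.0 in high and 43.2 in low pigs (-0.22), and the neuronal DYNC1I1 19.8 in high and 17.8 in low pigs (0.14). DYNC1LI2 stood at 2.44 times DYNC1LI1 in high pigs and 3.10 times in low pigs. DYNC1I2 stood at 1.87 times DYNC1I1 in high pigs and 2.43 times in low pigs. The ratio was smaller in high pigs for both pairs, with no measure of error for either ratio.

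The row named DYNC1H1, for the heavy chain, is of uncertain identity. It had 4.39 FPKM (1.63 to 7.16) in high pigs and 3.72 (1.12 to 6.33) in low pigs, far under the light chains. The row covers 7.90 kb of chromosome 9 and lies 90.3 kb from DYNC2H1, whereas HSP90AA1 and PPP2R5C, the neighbours of DYNC1H1 in the RefSeq table of assembly Sscrofa11.1, lie on chromosome 7 in the deposited table. As deposited, 6 of the 9 rows of dynein 1 and shared light chains were lower in high pigs, near the 67.7% of all rows. Their median was -0.22, against -0.10 for all rows, and 5 of 9 were lower after quantile normalization. The role, shared light chains included, summed to 742 FPKM in high pigs and 927 in low pigs. All rows with an estimate summed to 403015 FPKM in high pigs and 488491 in low pigs, so both sums were smaller in high pigs.

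Several members are neighbours on chromosome 14, which holds 10 of the 73. NEFL and NEFM lie 24.1 kb apart, at 10087370 to 10093095 and 10117158 to 10122555. DPYSL2, STMN4 and KIF13B follow within the stretch that ends at 14342690. All 5 were lower in high pigs, under both scalings as well. The 27 other tested rows of the stretch had a median of -0.16, and 19 of them were lower in high pigs. That is 70.4% of them, against 67.7% of all rows. Among the 10 pairs of neighbours less than 5 Mb apart in which both genes passed the filter, 7 had the same sign and 3 had opposite signs as deposited. DPYSL5 and KIF3C on chromosome 3 were of the first kind (0.21 and 0.18), and KIF17 and STMN1 on chromosome 6 of the second (0.46 and -0.26). The first kind also holds the successive pairs of the chromosome 14 stretch and TUBA1B with TUBA1A, which share a locus. It further holds DYNC2H1 with the row named DYNC1H1, whose identity is uncertain. The pairs are therefore not independent, and their count was not tested.

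Other genes of the microtubule and intermediate filament systems were listed whatever their values. Of 61 such genes, 56 were matched and 54 passed the filter, with 0 past 1.5-fold, against 6.33% of all rows, and 0 with intervals apart, against 0.458%. As deposited 16 were higher and 38 lower in high pigs (median -0.07), against 32 and 22 by median-of-ratios scaling and 33 and 21 by quantile normalization. Dynactin, the cofactor of dynein, and its adaptors had a median of -0.09 over 18 genes as deposited, which became 0.01 and 0.05 under the scalings. DCTN1, its largest subunit, had 91.0 FPKM in high pigs and 89.3 in low pigs, and DCTN6 45.5 in high and 59.3 in low pigs (-0.37).

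Among the plus-end proteins, which track growing microtubule ends, MAPRE1 had 36.8 FPKM in high pigs and 48.3 in low pigs (-0.38), while its neuronal paralog MAPRE3 had 84.7 in high and 85.0 in low pigs. TBCE, a tubulin folding cofactor, had 21.6 in high and 29.4 in low pigs (-0.43). TTLL7, which adds glutamate chains to beta tubulin in mouse neurons, had 11.9 in high and 16.2 in low pigs (-0.42). DCLK1, a neuronal doublecortin-like kinase, had 35.9 in high and 28.9 in low pigs (0.30).

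Of the other intermediate filament genes, VIM and NES differed more than the neurofilament chains, and PRPH did not. VIM, which encodes vimentin of glia, vessels and connective tissue, had 223 FPKM in high pigs and 316 in low pigs (-0.50). NES, nestin, had 1.39 in high and 2.51 in low pigs (-0.56). Both stayed lower in high pigs under each scaling. PRPH, the peripherin of peripheral and some central neurons, was below the filter at 0.995 in high and 0.809 in low pigs (0.14). GFAP was not among the rows with an estimate in both groups.

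Marker lists of the cells that the dissection can hold ranged more widely than the members. Of 10 neuronal markers, 7 were matched, with a median of -0.09 and a sum of 1390 FPKM in high pigs and 1490 in low pigs, and all 7 were positive under quantile normalization. SNAP25, a synaptic vesicle fusion protein, had 394 in high and 461 in low pigs, and UCHL1 493 in high and 481 in low pigs. Astrocyte markers had a median of -0.19 over 6 genes as deposited and summed to 2345 in high and 2856 in low pigs. Their median became -0.08 by median-of-ratios scaling and -0.01 by quantile normalization, with 3 of 6 higher in high pigs under either. All 6 microglial markers were lower in high pigs (median -0.53, sum 179 in high and 258 in low pigs), as were all 6 of fibroblasts and meninges (median -1.34, sum 45.8 in high and 146 in low pigs), under each scaling. Of the 6 fibroblast and meningeal markers, 5 passed 1.5-fold with the lower value in high pigs, against 4.49% of all rows. Deposited intervals were apart for 4 of them, against 0.458% of all rows. None of these markers was at 0 in either group, and their part in the differences of VIM, NES, STMN4 or the dynein light chains was not tested.

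**Figure D4:**
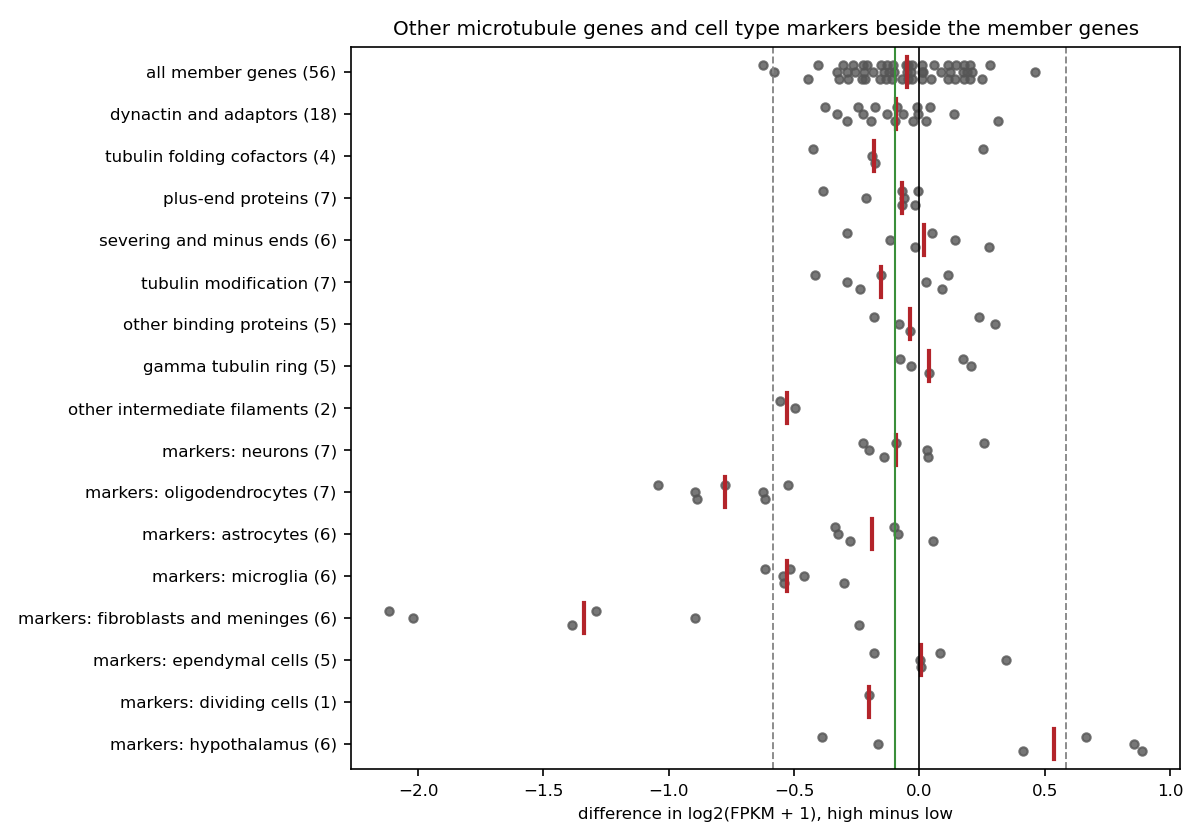
Difference in log2(FPKM + 1), high minus low, of the 56 genes (top row), the other microtubule genes and cell type markers (grey dots), with the median of each list (red bar), the median of all rows at -0.10 (green line) and the 1.5-fold limits (dashed lines). TUBB4A lies past the lower limit in the top row and the microtubule and filament lists stay within the limits, while markers of oligodendrocytes, of fibroblasts and meninges and 1 of microglia extend beyond the lower one and some of the hypothalamus beyond the upper one.

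The deposited bounds set how finely these values can be read. The median half-width for the 56 genes was 30.0% of the value in high pigs and 38.4% in low pigs, against 39.3% in high and 45.1% in low pigs for all rows, and it was wider in low pigs for each of the 56. At these widths, groups 1.5-fold apart still have overlapping intervals in a typical member. Assignment was called uncertain for 7 rows, because other rows of the same locus have at least 10% of the row's level or because the name or place is in doubt. These are TUBA1A, TUBA1B, KIF3C, KIF2C, KIF26B, the second KIF22 row and DYNC1H1. TUBB4B, TUBA4A and MAP4 were not counted among the 7, although they are also in some doubt. The RefSeq table places TUBB4B on another chromosome, and the identifier table gives the names TUBA4A and MAP4 to other rows.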

How the data were processed

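RNA was extracted with a RiboPure kit and made into paired-end TruSeq libraries sequenced on an Illumina instrument, per the labels' protocols. Tools listed in the submitters' processing notes are Cufflinks 2.0.2, TopHat2 2.0.5, Bowtie2, Trim Galore, FastQC and CASAVA, with Sscrofa10.2 as genome build and no account of their settings. The authors deposited FPKM with a lower and an upper bound and a status for each of 25009 gene rows, 1 value per group, per the file headers. How the 5 animals of a group were combined, the confidence level of the bounds and whether counting used strand were not given in the sources used here. Depth is unknown, and values per animal were not analysed here.

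Rows with an estimate in both groups (24951) and a mean of at least 1 FPKM (15281) were compared as log2(FPKM + 1), high minus low, with Python 3.11.15, pandas 2.3.3 and numpy 2.4.6. A row was called past 1.5-fold on FPKM + 1, or apart where the deposited intervals did not overlap. No test across animals was possible. Positions follow the deposited table and count from 1. An identifier table gave the same symbol for 54 of the 73 rows, another for 1 and no entry for 18. The members, roles and lists were chosen with earlier results of these data known. Genes were named by rule (NEFL, TUBB3, calls, the 3 most abundant of each role, repeated symbols and those nearest to 1.5-fold), and others were named after their values were seen. Alternatives were 2 scalings, other filters and pseudocounts, 1 row per symbol and a 2-fold limit. Sequences were not used here, so the planned protein identity among tubulins was not run. The scripts were tested on simulated data.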

Additional observations from a re-analysis of the deposited data

How the results depend on the processing

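The median difference of the members (-0.05) became 0.038 after median-of-ratios scaling and 0.11 after quantile normalization, and other settings run kept its sign. The median of all rows (-0.10) became -0.0051 and -0.0023. The members thus lay above it by 0.05 as deposited, 0.04 and 0.12 in that order, and the cause of the reversals was not tested. Medians also turned positive for alpha tubulins (0.0057 and 0.27), collapsin response mediators (0.074 and 0.055) and kinesin-1 subunits (0.035 and 0.11) under these scalings in that order, and under quantile normalization alone for beta tubulins (0.12), gamma tubulin (0.053), stathmins (0.11) and KIF2A, the only remaining kinesin past the filter (0.024). The count past 1.5-fold was 0 of 56 under either scaling (5.96% and 5.79% of all rows), where TUBB4A came to -0.51 and -0.31, and 0 at a 2-fold limit (2.56% of all rows), both overall and among genes lower in high pigs. It was 3 at a pseudocount of 0.1 FPKM (9.42% of all rows), with KIF17 higher (1 gene, 0.62) and TUBB4A and DYNLT1 lower (2 genes), and 2 at 0.5 FPKM (7.74% of all rows), both lower (DYNLT1 -0.59). Leaving out the 7 uncertain rows, chosen after seeing the data, left 1 call. No member had intervals apart under the scalings, filters or the choice of 1 row per symbol. At a mean of at least 5 FPKM, 46 members had a median of -0.10, against -0.13 for all rows. Without a filter on low values the order turned. The 73 members then had a median of -0.043, against -0.013 for all 24951 rows. No paired analysis was possible because each group has a single deposited value, and for the same reason no animal could be left out.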
